A study of Mus musculus with 4 samples.

Results

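The mRNAs of 10 genes of the melanocyte lineage and of the less differentiated melanoma states were followed between the protrusions and the cell bodies of YUMM1.7 cells. The genes were chosen by name: *Mitf*, *Pax3*, *Sox10*, *Sox9*, *Gpnmb*, *Tyr*, *Tyrp1*, *Dct*, *Pmel* and *Ngfr*. Of these 10, 7 were among the 16537 genes of the deposited table, and *Sox10*, *Tyrp1* and *Dct* were not listed. Only 4, *Gpnmb*, *Pax3*, *Sox9* and *Mitf*, reached a mean of 1 TPM (the share of a library's transcripts, scaled by length) over the 4 libraries. These 4 belong to the 11400 genes at that level, over which protrusions were tested against cell bodies. *Gpnmb* was the most abundant of the 7 listed genes and lay lower in protrusions in both replicates, but it passed the test only when the replicates were treated as pairs. *Mitf* and *Pax3* were at much the same level in both fractions, and the values of *Sox9* overlapped between the fractions. *Tyr* and *Pmel* were represented by few reads and *Ngfr* by 1 read.

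YUMM1.7 is a mouse melanoma line with engineered alleles, among them activated *Braf* and inactivated *Cdkn2a*, and the label for its genotype reads wildtype, with no treatment besides the fractionation. The cells were grown overnight on inserts with 1-µm pores whose underside was coated with fibronectin, so that protrusions passed through the pores and cell bodies did not. Cell bodies (n = 2) were scraped from the top, and protrusions (n = 2) were taken from the cleaned membrane, with 6 inserts for each replicate. Both replicates, labelled as biological, come from a single cell line, so other melanomas are not represented.

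MITF is a basic helix-loop-helix transcription factor that binds E-box sequences and drives the genes of pigment synthesis, together with SOX10 and PAX3, which act upstream of it. Tyrosinase, TYRP1 and DCT are the melanosomal enzymes of melanin synthesis, and PMEL forms the fibrils on which melanin is laid down. Melanoma cells can lose this program and take on a dedifferentiated or neural crest-like state, in which MITF and pigment genes are low while genes such as *Axl*, *Ngfr*, *Aqp1* or *Sox9* can be high. *Mitf* is transcribed from several start sites, one of them used mainly in melanocytes. A value per gene does not tell its isoforms apart.

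The melanocytic readout of MITF can be seen in the promoters of the pigment enzymes, which are shown because *Tyr* was below 1 TPM here and *Tyrp1* and *Dct* were not listed. RefSeq promoters (GRCm38.p6, 250 bases before to 50 bases from the start site on) were at hand for 6 of the 10 genes, 8 promoters in all, of which 3 belong to *Mitf*. The longest run that the promoters of the 3 pigment enzyme genes share around the E-box CATGTG was GTCATGTGCT, which matches the M-box, an extended E-box bound by MITF. Its presence in these 3 promoters follows from how it was found. Searched on both strands, it was in 61 of 32851 promoters of the whole set (0.186%). In the 30-base windows, written 5′ to 3′ along the gene, capitals mark the shared run.
*Tyr*, chr7:87493516-87493545, minus strand: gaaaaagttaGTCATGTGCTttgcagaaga
*Tyrp1*, chr4:80834155-80834184, plus strand: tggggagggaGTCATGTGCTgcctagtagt
*Dct*, chr14:118052379-118052408, minus strand: tgcacttaggGTCATGTGCTaacaaagagg
The match begins 23 bases before the RefSeq start site of *Tyr*, 48 before that of *Tyrp1* and 152 before that of *Dct*. For *Tyr* the deposited gene ends at 87493411 on the minus strand, outside the RefSeq promoter (chr7:87493463-87493762). Its deposited start site therefore differs, and the distance holds for the RefSeq start site only. The E-box CATGTG within it is held by 14.2% of all promoters. The last *Mitf* start site in the direction of transcription has a different element, the palindromic cAMP response element TGACGTCA, through which cAMP signaling acts on *Mitf* in melanocytes. It begins 153 bases before that start site, and 1.79% of all promoters hold it. Capitals mark this element in the next window.
*Mitf*, chr6:97991619-97991648, plus strand: gaaaaaaagcaTGACGTCAagccagcaggg
The *Gpnmb* promoter held none of these letters, nor the E-box CACGTG, which 7.15% of all promoters hold. A match describes the letters in the window and is not evidence of binding.

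The libraries held 25854944 to 30994908 reads assigned to genes, which were worked out from the TPM columns, and each had at least 1 read for 14784 to 15123 genes. The fewest reads of a listed gene, summed over the 4 libraries, was 1, so that a gene without any read would not appear in such a table. All 10 genes are in RefSeq, but no source used here gives the annotation behind the counting. The absence of *Sox10*, *Tyrp1* and *Dct* is therefore reported as not listed and is not given a value. Markers of liver, which these cells are not, summed to 6.88 and 10.9 TPM in cell bodies and to 83.1 and 22.01 TPM in protrusions, replicates 1 and 2 in turn. Outside protrusions replicate 1 most of this was *Ass1*, at 5.53 and 7.94 TPM in cell bodies and 18.4 TPM in protrusions replicate 2. In protrusions replicate 1 *Ass1* was at 11.5 TPM. *Alb*, the albumin gene, had 782 reads in protrusions replicate 1 and 2 to 16 reads in the other libraries.

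**Figure D1:**
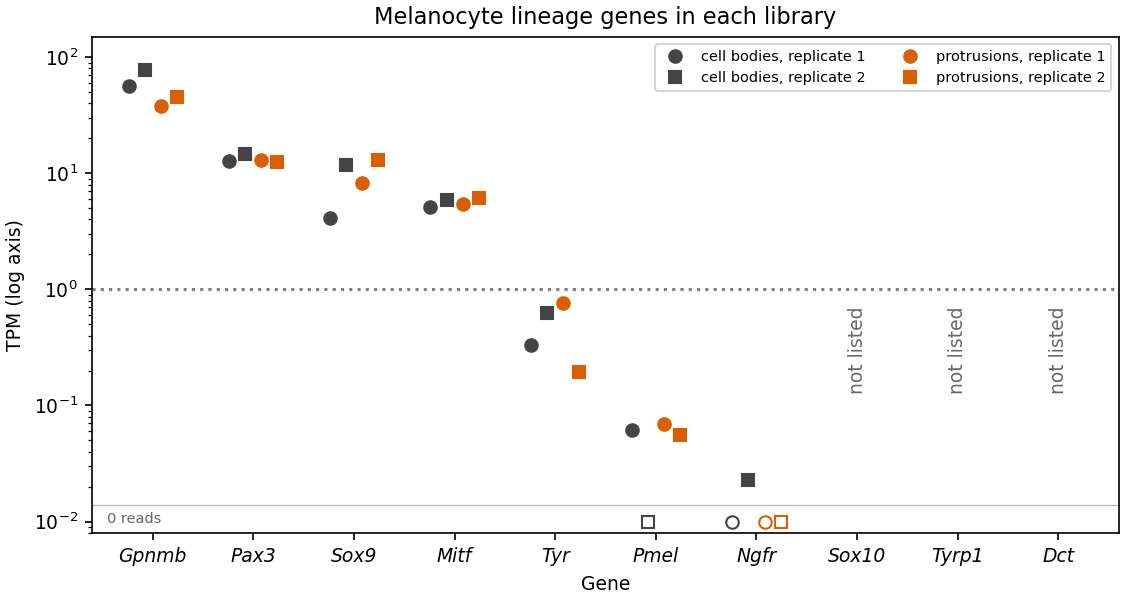
TPM (log axis) of the 10 genes in each of the 4 libraries, in order of mean level, with grey points for cell bodies, orange points for protrusions, circles for replicate 1 and squares for replicate 2. Open symbols below the line stand for 0 reads, and the dotted line marks 1 TPM, the minimum for testing. *Gpnmb*, *Pax3*, *Sox9* and *Mitf* lie above it in every library, and the cell body points of *Gpnmb* lie above both of its protrusion points.

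The transcription factors were expressed at a modest level. *Mitf* (chr6:97807058-98021358 on mm10, plus strand) was at 5.12 and 5.93 TPM in cell bodies and at 5.45 and 6.17 TPM in protrusions, from 381 to 544 reads per library. The 4 values interleave, and the log2 fold change (protrusions relative to cell bodies, also in what follows) was 0.07, with a 95% confidence interval of -0.39 to 0.52 (SE 0.18, adjusted p = 0.834 from limma). The interval corresponds to a 0.765-fold to 1.44-fold level in protrusions, so a 2-fold difference lies outside it in both directions. Without cell bodies replicate 1 the log2 fold change was -0.029 and without protrusions replicate 2 it was -0.014, so *Mitf* has no direction here.

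*Pax3* (chr1:78101267-78197136, minus strand), a paired-box factor of the neural crest and of melanoblasts, was at 12.7 and 14.6 TPM in cell bodies and at 13.0 and 12.4 TPM in protrusions. Its 4 values span 12.4 to 14.6 TPM and overlap between the fractions. The log2 fold change was -0.09, with an interval of -0.46 to 0.28 (SE 0.15, adjusted p = 0.707 from limma), which excludes a 2-fold difference too. Without cell bodies replicate 2 it was 0.00.

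*Sox9* (chr11:112782210-112787757, plus strand), an SRY-related factor of neural crest cells that is often reciprocal to *Sox10* in melanoma, was the least reproducible of the 4. It was at 4.16 TPM in cell bodies replicate 1 and 11.7 TPM in cell bodies replicate 2, against 8.22 and 13.1 TPM in protrusions. Replicate 1 was the lower of the pair in both fractions, and the fractions overlap. The log2 ratio of protrusions to cell bodies was 0.90 in replicate 1 and 0.15 in replicate 2. The fitted log2 fold change was 0.53, with an interval of -0.64 to 1.696 (SE 0.47, adjusted p = 0.488 from limma), and with the replicate pairs as a block the adjusted p was 0.113. It ranged from -0.17 without cell bodies replicate 1 to 1.22 without cell bodies replicate 2, so the data leave a 2-fold difference within the interval. *Sox10* itself, which specifies melanocytes and glia, was not listed.

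*Gpnmb* (chr6:49036518-49058182, plus strand) encodes a membrane glycoprotein related to PMEL that is found in melanosomes and lysosomes and is a MITF target in melanocytes. It was at 56.3 and 77.7 TPM in cell bodies and at 37.8 and 45.1 TPM in protrusions, from 1938 to 3828 reads per library. Both protrusion values lie below both cell body values, a pattern that 37.0% of the tested genes shared, while 26.4% had the opposite one. The means were 67.0 ± 15.1 TPM (SD, n = 2) and 41.4 ± 5.15 TPM (SD, n = 2). The log2 fold change was -0.67, with an interval of -1.14 to -0.21, which is a 0.627-fold level in protrusions (SE 0.19, unadjusted p = 0.0128 and adjusted p = 0.0812 from limma). It was -0.57 in replicate 1 and -0.78 in replicate 2. With the replicate pairs as a block the adjusted p was 0.00657, and 13.3% of all tested genes were lower with that block at an adjusted p under 0.05.

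*Gpnmb* is also a gene of macrophages. Of 11 macrophage markers 3, *Adgre1*, *Itgam* and *Tyrobp*, were not listed, and the list summed to 2.20 to 4.21 TPM in cell bodies and 2.41 to 3.38 TPM in protrusions, most of it *Cd68*, whose mean was 2.69 TPM. The fractions are parts of the same cell population, and the part of any macrophages in the *Gpnmb* values was not tested. The log2 fold change of *Gpnmb* was -0.55 without protrusions replicate 1, the library with the most liver mRNA. It ranked 2719th of the listed genes by mean TPM, and 9.05% of the tested genes had a lower log2 fold change.

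The pigment genes that were listed had few reads. *Tyr* (chr7:87427405-87493411, minus strand) had 17 and 27 reads in cell bodies and 34 and 11 reads in protrusions, which is 0.333, 0.630, 0.762 and 0.195 TPM. Its highest and its lowest value are both from protrusions, and it was below the minimum for testing, though above the level that 3 reads give (0.0533 to 0.0700 TPM) in every library. *Pmel* (chr10:128706258-128720238, plus strand) had 2 and 0 reads in cell bodies and 2 reads in each protrusion library. Its highest level, 0.0696 TPM, is below the level that 3 reads give in any library (0.0827 to 0.109 TPM), so no difference could be detected at this depth. *Tyrp1* and *Dct* were not listed. *Ngfr* (chr11:95568821-95587698, minus strand), the low-affinity neurotrophin receptor and a marker of neural crest-like melanoma cells, had 1 read in cell bodies replicate 2 and none in the other libraries. A count of 0 allows up to 0.0517 to 0.0653 TPM of *Ngfr* in those libraries. These limits cover counting error only.

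In order of mean TPM the listed genes were *Gpnmb* (54.2), *Pax3* (13.2), *Sox9* (9.29), *Mitf* (5.67), *Tyr* (0.480), *Pmel* (0.0464) and *Ngfr* (0.00566). The library ranges of *Pax3* and *Sox9* overlapped, as did those of *Sox9* and *Mitf* and those of *Pmel* and *Ngfr*, so these neighbours do not differ beyond their spread. The ranges of *Gpnmb* and *Pax3*, of *Mitf* and *Tyr*, and of *Tyr* and *Pmel* did not overlap. Without the replicate block, 2.99% of all tested genes were higher and 4.25% lower, 7.25% in all. No member was called in either direction in that fit (limma, adjusted p under 0.05). At an unadjusted p under 0.05 there was 1, *Gpnmb*, where 18.7% of all tested genes were lower and 31.3% passed in either direction. The fit on recovered reads with limma voom called 0 of the 4 members tested, where it called 924 of the 11400 genes higher and 829 lower. With the replicate block 1 was lower and 0 were higher, against 13.3% and 8.08% of all tested genes, 21.4% in all.

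**Figure D2:**
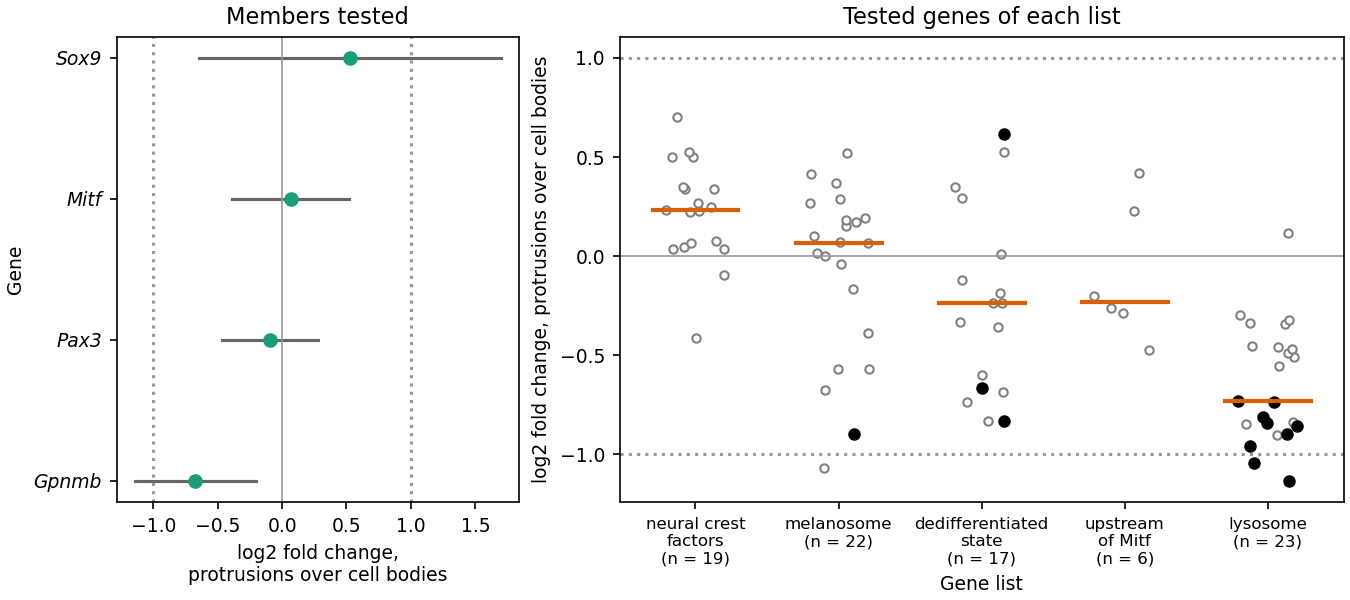
Left, protrusions relative to cell bodies as a log2 fold change for the 4 members tested, with 95% confidence intervals. Right, log2 fold change of each tested gene of 5 gene lists, with filled points for adjusted p under 0.05 (limma), open points for the others and an orange bar for the median. Dotted lines mark a 2-fold difference. The lysosome list lies lowest, with a median of -0.73 and 9 filled points.

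*Mitf* belongs to a family of 4 related factors that share the E-box. *Tfe3*, which acts with TFEB on lysosomal genes, was at 12.2 and 11.7 TPM in cell bodies and 17.1 and 20.1 TPM in protrusions, without overlap. Its log2 fold change was 0.61 (SE 0.15, adjusted p = 0.0638 from limma, 0.0296 with the replicate block). *Tfeb* was near 1 TPM, with a log2 fold change of 0.36 (adjusted p = 0.477 from limma), and *Tfec* had at most 2 reads in a library. None of the 3 tested was called, and 1, *Tfe3*, was higher with the block, where 8.08% of all tested genes were. So *Tfe3* was the family member with the most mRNA per length, above *Mitf* in every library.

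Of 27 neural crest and melanoma-state transcription factors, 23 were listed, 19 were tested and 0 were called in either direction. Their median log2 fold change was 0.23, where the median of all tested genes was -0.07. Of the 19, 17 were above 0, as were 4912 of the 11400 tested genes. At an unadjusted p under 0.05 there were 2, both higher, where 1432 of the 11400 were higher. With the replicate block the number was the same at an adjusted p under 0.05, against 8.08% of all tested genes. These 2 were *Tead1*, a partner of YAP in transcription, with a log2 fold change of 0.70 (adjusted p = 0.0861 from limma, 0.0225 with the block), and *Sox2*, a stem cell factor, with 0.50 (adjusted p = 0.109, 0.0284 with the block). *Zeb1*, a factor of the mesenchymal state, had a log2 fold change of 0.34 (adjusted p = 0.164 from limma). The most abundant were *Jun*, at 74.2 to 101 TPM, and *Id3*, which differed more between replicates (214 and 86.5 TPM in cell bodies) than between fractions. Besides *Sox10*, the factors *Sox8*, *Foxd3* and *Msx2* were not listed.

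The receptors whose signals feed into *Mitf* differed widely in level. Of 13 genes upstream of *Mitf*, *Kit*, the receptor that melanoblasts depend on, was not listed, nor were *Edn3*, *Asip* and *Pomc*. *Mc1r*, the melanocortin receptor that raises cAMP, had 1 or 2 reads in each library, and *Ednrb*, the endothelin receptor of melanoblasts, had 1 read in all. The Wnt receptor *Fzd7* was at 11.5 to 18.5 TPM, with a log2 fold change of -0.26 (adjusted p = 0.496 from limma). *Kitl*, the ligand of KIT, was at 56.3 and 62.6 TPM in cell bodies and at 44.3 and 41.1 TPM in protrusions, without overlap (log2 fold change -0.47, adjusted p = 0.0713 from limma, 0.0343 with the block). *Creb1*, which acts through cAMP response elements, had a log2 fold change of -0.29 (adjusted p = 0.233) and its coactivator *Crebbp* one of 0.42 (adjusted p = 0.312). *Ctnnb1*, which encodes β-catenin, was the most abundant of the list at 303 to 406 TPM, with a log2 fold change of -0.20 (adjusted p = 0.349). Of the 6 tested, 0 were called, where 7.25% of all tested genes were, and with the block 1, *Kitl*, was lower, where 13.3% of all were.

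**Figure D3:**
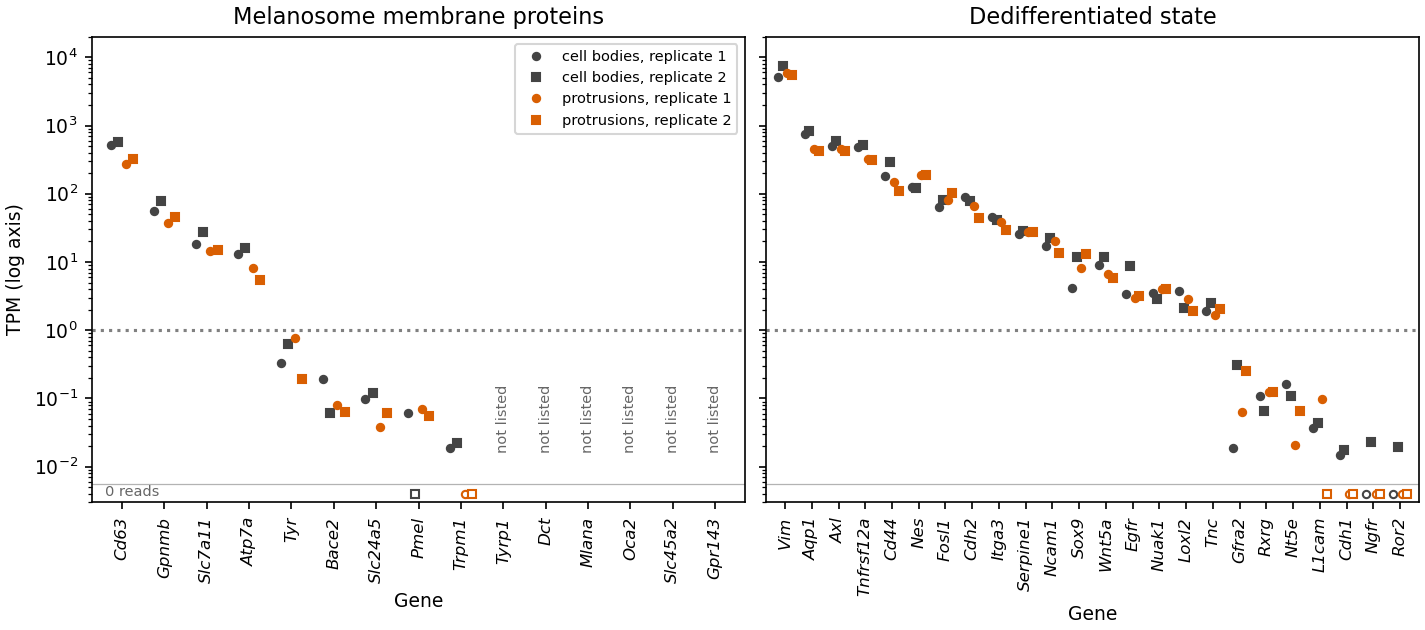
TPM (log axis) in each library, with symbols as in the plot of the 10 genes. Left, integral membrane proteins of the melanosome and pigmentation list. Right, the list of the dedifferentiated or neural crest-like state, which also counts the epithelial cadherin *Cdh1*. On the left 4 of 15 genes are above 1 TPM and 6 are not listed, and on the right 17 of 24 genes are above 1 TPM and 6 are above 100 TPM.

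Genes of the dedifferentiated state were listed throughout, and many were abundant. All 24 were in the table, 17 of them at a mean of at least 1 TPM and 6 at a mean of at least 100 TPM. *Vim*, the mesenchymal intermediate filament, was at 5187 to 7557 TPM, and *Axl*, a receptor tyrosine kinase of *Mitf*-low melanoma, at 417 to 595 TPM. Each cell body or protrusion library thus held more *Axl* per length than the 7 listed members together, which summed to 65.4 to 111 TPM. Some genes of the list were nearly absent, among them *Ngfr*, *Gfra2*, *Rxrg*, *L1cam*, *Nt5e* and *Ror2*, each at a mean below 1 TPM. The epithelial cadherin *Cdh1*, which is also counted among the 24, had at most 1 read in a library. The neural cadherin *Cdh2*, in contrast, was at 44.2 to 89.0 TPM.

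Of the 17 tested genes of this state, 1 rose and 2 fell in protrusions, where 2.99% of all tested genes rose and 4.25% fell. The median log2 fold change was -0.24. *Nes*, the intermediate filament nestin of neural progenitors, was at 126 and 119 TPM in cell bodies and at 188 and 187 TPM in protrusions (log2 fold change 0.61, SE 0.10, adjusted p = 0.0382 from limma). *Aqp1*, a water channel of the neural crest-like state, was at 758 and 824 TPM in cell bodies and at 457 and 430 TPM in protrusions (log2 fold change -0.83, SE 0.11, adjusted p = 0.0342). *Tnfrsf12a*, the receptor of TWEAK, was at 483 and 517 TPM in cell bodies and 318 and 313 TPM in protrusions (log2 fold change -0.66, SE 0.10, adjusted p = 0.0355). None of the 3 overlapped between the fractions, where 37.0% of all tested genes lay wholly lower in protrusions and 26.4% wholly higher. With the replicate block 1 was higher and 5 were lower, against 8.08% and 13.3% of all tested genes. Fits that leave out a library called few or no genes of the whole table, so they cannot weigh these calls.

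Of 36 melanosome and pigmentation genes, 29 were listed and 22 tested, of which 0 rose and 1, *Cd63*, fell, a share near the 4.25% of all tested genes that fell. *Cd63* encodes a tetraspanin of melanosomes, endosomes and lysosomes and was at 526 and 575 TPM in cell bodies and at 271 and 321 TPM in protrusions (log2 fold change -0.90, SE 0.13, adjusted p = 0.0349 from limma). Fits that leave out a library called few or no genes of the whole table, so they cannot weigh this call. The median of the 22 was 0.07, and with the replicate block 4 were lower, against 13.3% of all tested genes. Besides *Tyrp1* and *Dct*, the table did not list *Mlana*, *Oca2*, *Slc45a2*, *Gpr143* and *Rab38*. *Rab27a* and *Mlph*, which with MYO5A carry melanosomes along actin, were below 1 TPM, while *Myo5a* was at 45.1 to 60.01 TPM.

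The list was divided, after its values were seen, into integral membrane proteins, whose mRNAs are translated at the endoplasmic reticulum, and cytosolic proteins, so the division is a description. The 4 membrane proteins tested, *Cd63*, *Gpnmb*, the copper transporter *Atp7a* and the cystine transporter *Slc7a11*, were all lower in both protrusion libraries than in either cell body library, as were 37.0% of all tested genes, with a median log2 fold change of -0.79. With the replicate block all 4 were lower, against 13.3% of all tested genes. *Atp7a* was at 13.0 and 15.97 TPM in cell bodies and at 8.14 and 5.37 TPM in protrusions (log2 fold change -1.07, SE 0.24, adjusted p = 0.0522 from limma, 0.00778 with the block). The 18 cytosolic proteins tested, mainly subunits of the BLOC, HPS and AP-3 trafficking complexes, had a median of 0.13, with 14 above 0 and 0 called. Of the 11400 tested genes 4912 were above 0 and 7.25% were called. The most abundant of them, *Bloc1s1*, was at 133 to 174 TPM and had a log2 fold change of 0.01 (adjusted p = 0.962).

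**Figure D4:**
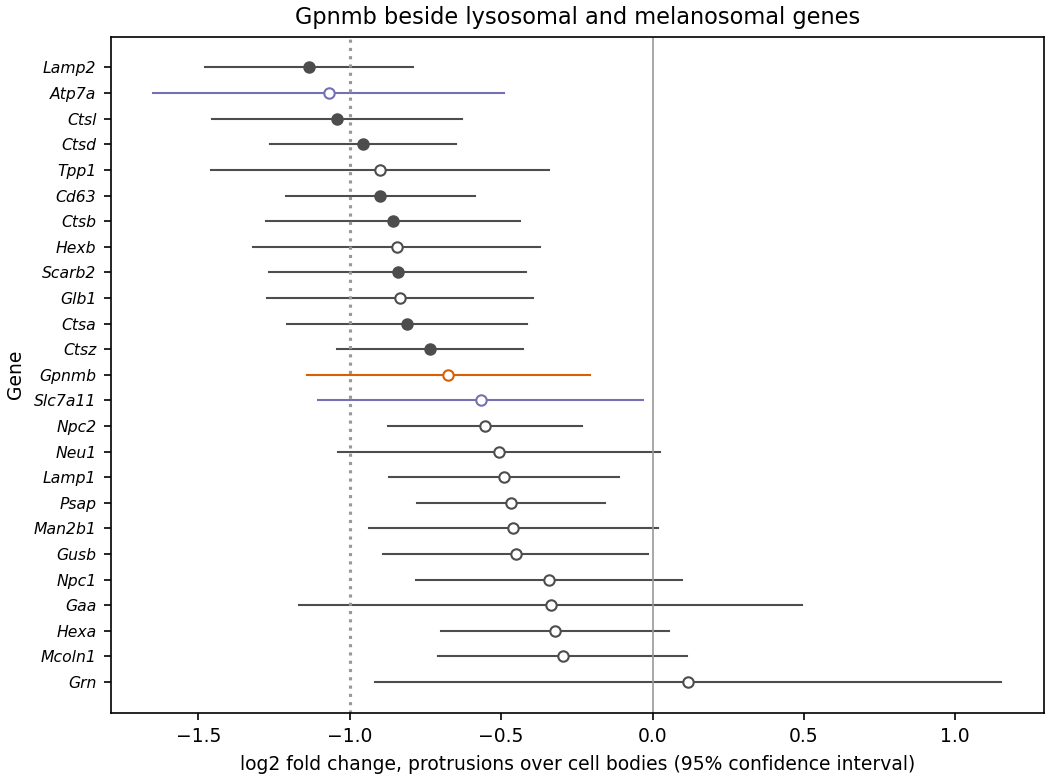
Protrusions relative to cell bodies as a log2 fold change with 95% confidence intervals, in order of value. Shown are 22 of the 23 lysosomal genes (grey), *Gpnmb* (orange) and, from the melanosome and pigmentation list, the transporters *Atp7a* and *Slc7a11* (purple). Filled points passed an adjusted p of 0.05 (limma). Of the 22 lysosomal genes plotted 21 lie below 0, and 11 lie below *Gpnmb*.

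Lysosomes share their biogenesis with melanosomes, and *Gpnmb* and *Cd63* are found in both. Of 23 lysosomal membrane proteins and hydrolases, all were tested, 9 fell in protrusions (39.1%, where 4.25% of all tested genes did) and 0 rose. The list was chosen with earlier results of these data known, so these shares are a description. Its genes were also abundant, with a median of 72.8 TPM and 20 at a mean of at least 10 TPM, while the tested genes reach down to 1 TPM. The median log2 fold change was -0.73, and 21 of the 23 were lower in both protrusion libraries than in either cell body library, against 37.0% of all tested genes. *Lamp2*, a major protein of the lysosomal membrane, was at 152 and 184 TPM in cell bodies and at 80.3 and 71.7 TPM in protrusions (log2 fold change -1.13, SE 0.14, adjusted p = 0.0342 from limma). The protease cathepsin D, *Ctsd*, was at 452 and 531 TPM in cell bodies and at 262 and 243 TPM in protrusions (log2 fold change -0.96, SE 0.12, adjusted p = 0.0342). Cathepsin L, *Ctsl*, was the most abundant at 926 and 1255 TPM in cell bodies and 498 and 549 TPM in protrusions (log2 fold change -1.04, SE 0.17, adjusted p = 0.0366).

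Among the others that fell were *Cd63*, *Ctsz*, *Ctsa*, *Ctsb* and *Scarb2*, with log2 fold changes of -0.90 to -0.73. *Grn*, which encodes progranulin, was the only one of the 23 above 0 (0.12, with an interval of -0.92 to 1.15). With the replicate block 16 were lower, against 13.3% of all tested genes. Fits that leave out a library called few or no genes of the whole table, so they cannot weigh this list. The log2 fold change of *Gpnmb* lay within the range of this list, above that of 12 of its genes.

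By the pattern over the 4 libraries, the genes most like *Gpnmb* among 7879 genes with a mean of at least 10 TPM were *Cd300lb*, *Fkbp11* and *Sgk1*. The root mean square difference of their log2 values, each centred on its own mean, was 0.0228, 0.0279 and 0.0297. *Cd300lb*, which encodes a membrane receptor of the CD300 family, was at 19.8 and 28.1 TPM in cell bodies and at 12.9 and 15.8 TPM in protrusions. It was not among the macrophage markers summed above. *Fkbp11*, a prolyl isomerase of the secretory pathway, was at 27.5 and 36.7 TPM in cell bodies and at 17.4 and 21.5 TPM in protrusions. *Sgk1*, a kinase, was at 190 and 274 TPM in cell bodies and at 129 and 151 TPM in protrusions. With 4 libraries this likeness describes order and spread alone.

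Markers of other cell types were measured beside the lineage genes. The label of melanoma cells was checked against 8 melanocyte lineage markers, a set that does not include *Gpnmb*. *Mitf* and *Pax3* were above 1 TPM, *Tyr* and *Pmel* were below it, and *Sox10*, *Tyrp1*, *Dct* and *Mlana* were not listed. *Gpnmb*, at a mean of 54.2 TPM, was above all of these markers that were listed. Fibroblast markers summed to 865 and 989 TPM in cell bodies and to 776 and 604 TPM in protrusions. Most of it was *Col1a2*, *Pdgfra* and *Col3a1* (means of 465, 160 and 145 TPM). *Pdgfrb* was at 32.8, *Col1a1* at 3.79 and *Dcn* at 1.68 TPM, *Lum* and *Fap* were below 1 TPM and *Thy1* was not listed. Of the 6 tested 1, *Pdgfra*, fell (log2 fold change -1.10, adjusted p = 0.035 from limma). Schwann cell and glial markers summed to 39.5 and 42.5 TPM in cell bodies and to 27.1 and 19.6 TPM in protrusions, most of it *Pmp22*. Of the 2 tested 1, *Pmp22*, fell (log2 fold change -0.96, adjusted p = 0.0451 from limma). Of all tested genes 4.25% fell. Keratinocyte markers summed to 2.53 to 3.002 TPM, and 7 of the 9 were not listed. The part of other cells in these values was not tested.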

How the data were processed

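RNA-seq of YUMM1.7 cell bodies and protrusions (2 libraries each) was used, with groups and replicate numbers from the labels. The members and gene lists were chosen with earlier results of these data known.

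The authors deposited TPM per library, made from stranded single reads on mm10. The paper names TopHat and the submitters' processing notes name STAR and featureCounts, with no versions used here. The authors' deposited edgeR columns hold a log2 fold change, a likelihood ratio score, a p-value and an FDR, none of which were used. Their mean log2 CPM only set the scale of the recovered reads.

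A minimum mean of 1 TPM left 11400 genes, whose log2(TPM + 0.5) values were analysed by limma 3.58.1 under R 4.3.3, with a prior variance that follows the level. Tests were two-sided with Benjamini-Hochberg adjustment over all 11400 genes, and a gene was called at an adjusted p under 0.05. On this scale the change of a low gene is understated. Simulated data were used to test the fit and the recovery of reads. Read counts came out whole within 0.0001 reads for all 16537 genes, and depth was 25854944 to 30994908 reads. No source used here says whether counting used strand.

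A supplemental sheet heads the samples as paired, and deviations of same-numbered libraries correlated at 0.447. The main fit nevertheless had no block, so calls not marked with the block or another setting ignore this pairing. The block fit treats same-numbered libraries as pairs and is given where it changed a call. It leaves 1 residual degree of freedom, against 2 in the main fit. Among all tested genes 2434 were called with the block and 826 without it (limma). For *Gpnmb* the adjusted p was 0.00657 with the block and 0.0812 without it (limma). Coordinates are those of the table on mm10 with 1 added to the start. Promoters were those of RefSeq.

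The genes named are the members, from each list the 3 with the smallest p, the 2 with the highest mean TPM and those called, and the 3 most like *Gpnmb*. *Axl*, *Slc7a11*, *Cdh2*, *Fzd7*, *Myo5a*, *Grn*, the genes not listed or below 1 TPM and the division by membrane proteins were chosen after values were seen. So were the marker genes of other cell types that are named. A few list genes are left unnamed but remain in the counts. Alternatives were a replicate block, other pseudocounts and minimum levels, TMM scaling, median centring, limma voom on recovered reads, and leaving out each library.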

Additional observations from a re-analysis of the deposited data

How the results depend on the processing

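*Gpnmb* kept a negative log2 fold change under all 12 alternatives, with an adjusted p of 0.00657 to 0.2503, and passed only with the replicate block. Its log2 fold change was -0.90 to -0.44 over the fits that leave out a library. Over the same fits it was -0.029 to 0.16 for *Mitf*, -0.19 to 0.00312 for *Pax3* and -0.17 to 1.22 for *Sox9*. Signs turned for *Mitf* (-0.029 without cell bodies replicate 1, -0.014 without protrusions replicate 2), *Pax3* (0.00312 without cell bodies replicate 2) and *Sox9* (-0.17 without cell bodies replicate 1). With the replicate block, which pairs the libraries by number, the calls were 1 of the members, 1 of the MITF family, 2 neural crest factors, 4 melanosome genes, 1 signal upstream of *Mitf*, 6 genes of the dedifferentiated state and 16 lysosomal genes. With no minimum TPM there were 0 calls among melanosome, dedifferentiated state and lysosomal genes, and 0 in the table (3630 at an unadjusted p under 0.05). A mean TPM of at least 5 gave 1 call in the MITF family and 2 among melanosome genes, median centring 1 neural crest factor and 2 melanosome genes, and limma voom 1 in the MITF family, 1 neural crest factor and 2 melanosome genes. Leaving out a library leaves 1 in its fraction, so calls within the lists under those fits carry no weight. Over all genes, 341 rose and 485 fell, against 921 and 1513 with the block, 505 and 801 at a mean TPM of at least 5, 924 and 829 with voom and 21 and 200 without protrusions replicate 1. Without any one of the other 3 libraries no gene passed, with 1890 to 3148 at an unadjusted p under 0.05. Of the calls, 41.3% were higher, against 52.7% with voom. The number of members at a mean of at least 1 TPM was 4, and 5 at a mean of at least 0.1 TPM. With 2 libraries a fraction, a p that misses the threshold does not show that fractions are alike.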
